A study of Mus musculus with 2 samples.

Results

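The named microRNA genes inside the mouse Hox clusters are Mir10a, Mir10b, Mir196a-1, Mir196a-2, Mir196b and Mir615. These 6 genes were taken by name and place from the 2202 microRNA genes in the deposited tables. All 6 had reads in both libraries. The tissue was gastrocnemius, the large muscle of the calf, of male mice at 14 days of age. The mice were of the B6CASTF1/J cross, the first generation from a C57BL/6 and a CAST/EiJ parent, and no transgene, treatment or other tissue was part of the design. The labels give 1 group of 2 biological replicates with 1 library each, so no condition was compared with another. Both labels share a donor identifier and mention several males, so each replicate could be 1 animal or a pool. The spread between the replicates may therefore be partly technical.

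Hox genes encode transcription factors that give cells their position along the axis of the body and of the limb. They stand in clusters, all read in the same direction, in the order of the body regions where each comes into use. The microRNA genes lie between them or in their introns. miR-10 lies beside the genes of paralog group 4 and miR-196 beside those of group 9. A microRNA is cut from a hairpin transcript by Drosha and Dicer and pairs with messenger RNA through its seed, bases 2 to 8. Many vertebrate targets of miR-196 are themselves Hox genes, and miR-196a is known to direct cleavage of the Hoxb8 messenger RNA.

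The mature sequences are shown first because they decide which reads could be told apart. RefSeq on GRCm38.p6 gave a mature sequence for all 6 genes. The 5′ arm of each family and the 3′ arm of miR-615 are printed 5′ to 3′, with the seed in capitals.
mmu-miR-10a-5p: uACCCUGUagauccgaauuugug
mmu-miR-10b-5p: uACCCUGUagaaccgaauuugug
mmu-miR-196a-5p: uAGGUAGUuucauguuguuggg
mmu-miR-196b-5p: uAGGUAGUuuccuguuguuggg
mmu-miR-615-3p: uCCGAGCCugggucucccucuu

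Mir10a and Mir10b shared the seed ACCCUGU, and the 3 Mir196 genes shared AGGUAGU. No other microRNA gene of the RefSeq table carried the seed of a member. In each family the paralogs differed at 1 base, outside the seed. With positions counted from 1 at the 5′ end, the difference from miR-10a to miR-10b was U12A and that from miR-196a to miR-196b was A12C. The base that differs is the capital in each line here.
mmu-miR-10a-5p: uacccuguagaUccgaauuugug
mmu-miR-10b-5p: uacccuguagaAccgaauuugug
mmu-miR-196a-5p: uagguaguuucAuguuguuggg
mmu-miR-196b-5p: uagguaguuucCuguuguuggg

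Mir196a-1 and Mir196a-2 encode the same miR-196a-5p, and their hairpins show where a read could tell them apart. Both mature arms are in capitals.
Mir196a-1: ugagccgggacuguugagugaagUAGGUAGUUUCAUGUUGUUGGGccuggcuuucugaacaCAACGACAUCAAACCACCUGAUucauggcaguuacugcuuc
Mir196a-2: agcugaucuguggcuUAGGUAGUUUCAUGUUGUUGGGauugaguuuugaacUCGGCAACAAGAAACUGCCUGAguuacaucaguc

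The longest run that the 2 hairpins share was 22 bases, exactly the mature 5′ arm, and the bases on either side of it differ. A read that lies within those 22 bases matches both loci, and in these tables a read that mapped to several loci is in no gene's count. The counts of Mir196a-1 and Mir196a-2 thus leave out an amount of miR-196a-5p that the tables do not give. The other members had no such copy among the microRNA genes. The longest run shared by Mir10a and Mir10b was 15 bases, that of Mir196b with any other microRNA gene was 12, and that of Mir615 was 14. Copies elsewhere in the genome were not searched. How many mismatches the alignment allowed, which matters for paralogs 1 base apart, is not given in the sources used here.

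Positions were read against 38 protein-coding Hox genes in 4 clusters, and all 6 microRNA genes are read in the direction of their cluster. Positions are on mm10. Mir10b (ENSMUSG00000065500.3, chr2:74726070-74726137, plus strand) is in Hoxd, 1141 bp before the coding sequence of Hoxd4, within introns of transcripts of Hoxd3 and Hoxd4. Mir10a (ENSMUSG00000065519.1, chr11:96317165-96317274, plus strand) has the matching place in Hoxb, 1495 bp before the coding sequence of Hoxb4, with no annotated host transcript. Mir196b (ENSMUSG00000065443.1, chr6:52230081-52230165, minus strand) lies in Hoxa between Hoxa10 and Hoxa9, in an exon of 2 non-coding transcripts of Hoxa9. It is 2343 bp after the coding sequence of Hoxa10 and 3976 bp before that of Hoxa9. Mir196a-2 (ENSMUSG00000065488.2, chr15:102973350-102973434, plus strand) lies in Hoxc between Hoxc10 and Hoxc9, in an intron of a non-coding transcript of Hoxc5. It is 2277 bp after the coding sequence of Hoxc10 and 8218 bp before that of Hoxc9. Mir196a-1 (ENSMUSG00000065546.1, chr11:96265164-96265265, plus strand) lies in Hoxb between Hoxb13 and Hoxb9, 6276 bp before the coding sequence of Hoxb9 and with no host. Mir615 (ENSMUSG00000076010.1, chr15:103014910-103015001, plus strand) is in an intron of Hoxc5. A further microRNA gene of the table within a cluster, Gm44463 in Hoxd, had 0 counts in both libraries and is not a member.

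**Figure D1:**
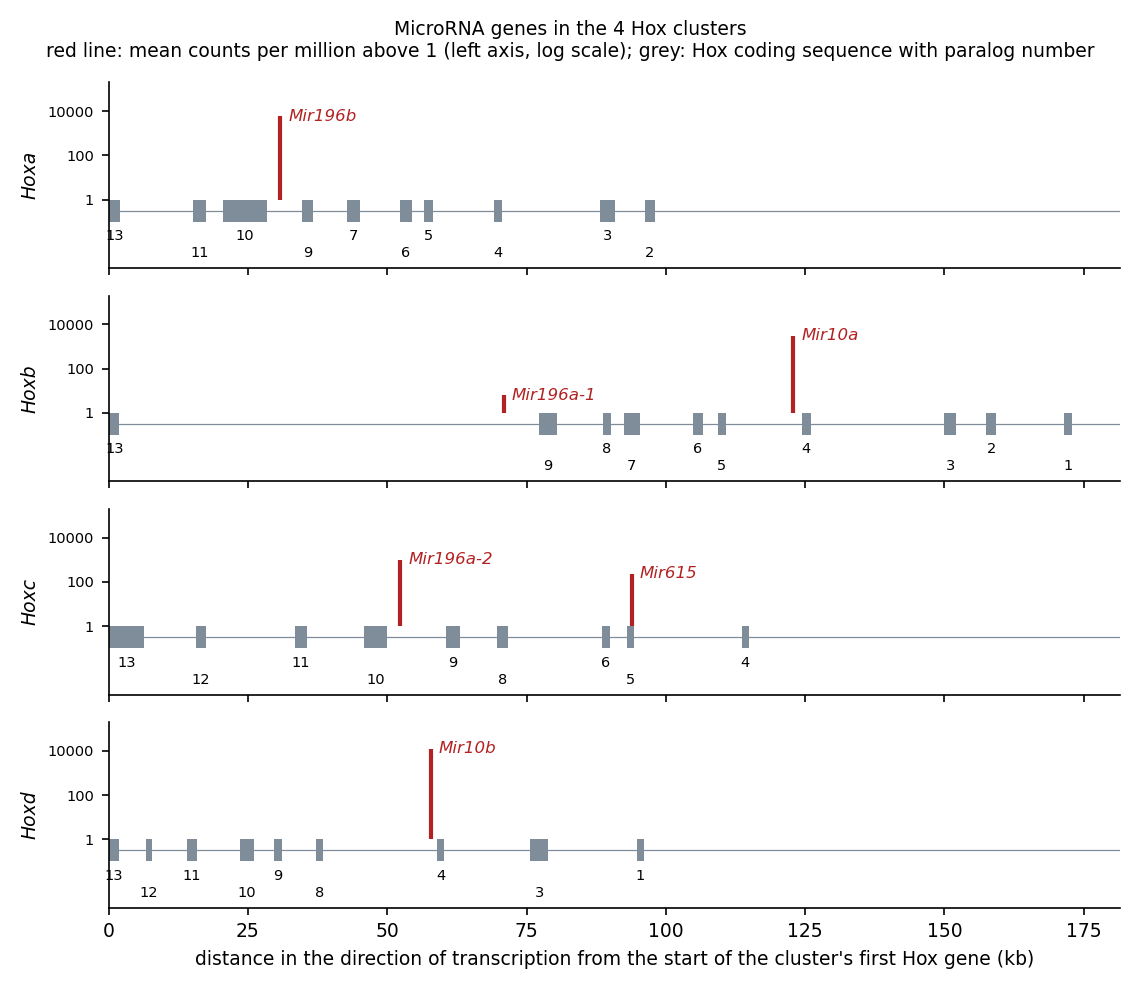
The 4 Hox clusters drawn to one scale, with distance in kb in the direction of transcription. Grey blocks are the coding spans of the 38 Hox genes used, with their paralog number, and each red line is a microRNA gene whose height is its mean CPM above 1 on a log scale. Mir10a and Mir10b stand just before a group 4 gene. The 3 Mir196 genes lie between a group 9 gene and the Hox gene before it, and Mir196a-1 has the lowest line, at 6.26.

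Levels are given in CPM (counts-per-million), the reads on a gene's own strand scaled by all reads assigned to a microRNA gene. Replicate 1 had 2743657 such reads and replicate 2 had 2211254. They were 27.3% and 27.0% of all reads, and 44.0% and 52.1% of all reads mapped to several loci. Those reads are in no gene's count and not in the total, so all CPM levels, shares and ranks hold for counted reads only. A gene that shares its mature sequence with another locus may therefore rank too low beside the members. No member had a read on the opposite strand. Counts were not scaled by length: the mature arms of all members are 22 or 23 bases long. A count covers both arms of a hairpin. Of all genes, 258 reached 10 CPM in both libraries, and 629 had any read.

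Together the 6 genes held 2.47% of assigned reads in replicate 1 (2.45% to 2.49%, 95% Wilson interval) and, in replicate 2, 2.08% (2.06% to 2.09%). Since PCR copies molecules, reads are not independent, and all such intervals cover counting error only. Hoxd, through Mir10b alone, gave 55.1% ± 2.79 (SD, n = 2) of the members' reads, and Hoxa, through Mir196b alone, gave 25.6% ± 0.156. Hoxb gave 13.8% ± 1.89 and Hoxc 5.54% ± 0.740, from 2 members each. The cluster with 1 member at the group 4 place thus held more of the counted reads than the other 3 clusters together, in both libraries. By place, the pair beside group 4 gave 68.8% ± 0.901 of the members' reads, and the 3 genes beside group 9 gave 30.2% ± 0.920. The sums for Hoxb, Hoxc and the group 9 place leave out miR-196a-5p reads that match both loci, by an unknown amount. These shares and their order therefore hold for counted reads only. Within each place the mean levels differed, from 3095 to 12561 CPM beside group 4 and from 6.26 to 5827 CPM beside group 9. In bulk tissue, fewer cells of a type and less RNA per cell cannot be told apart.

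Mir10b was the most abundant member. It had 14103 CPM in replicate 1 (13965 to 14244) and 11018 CPM in replicate 2 (10881 to 11156), a mean of 12561 CPM ± 2182 (SD, n = 2), and it ranked 21 of 2202. Replicate 1 was the higher, and the counting intervals did not overlap. Mir10a had 3064 CPM in replicate 1, 3127 CPM in replicate 2, a mean of 3095 CPM ± 44.2 and rank 43. Its replicates were nearly level. Mir10b therefore stood above Mir10a in each library, 4.60 times in replicate 1 (4.50 to 4.71) and 3.52 times in replicate 2 (3.43 to 3.62). This ratio is taken within a library and needs no scaling between libraries. It was larger in replicate 1 by more than counting error, since Mir10b differed and Mir10a hardly did. Of the reads of the pair, Mir10b gave 82.2% in replicate 1 and 77.9% in replicate 2.

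Mir196b led its family. Its level was 6311 CPM in replicate 1 against 5343 CPM in replicate 2, a mean of 5827 CPM ± 685 and rank 30, again with replicate 1 the higher. Mir196a-2 had 980 CPM in replicate 1 against 1046 CPM in replicate 2, a mean of 1013 CPM ± 46.3 and rank 73, with replicate 2 slightly higher. Mir196b was 6.44 times Mir196a-2 in replicate 1 (6.18 to 6.71) and 5.11 times in replicate 2 (4.89 to 5.34). This ratio does not compare the mature microRNAs, because the reads of miR-196a-5p that match both loci are in neither count. Mir196a-1 was the least abundant member, with 17 reads (6.20 CPM, 3.87 to 9.92) in replicate 1 and 14 reads (6.33 CPM, 3.77 to 10.6) in replicate 2. It ranked 286. The reads that could be placed were thus counted almost wholly at the Hoxc locus. Mir196a-2 was 158 times Mir196a-1 in replicate 1 (98.6 to 254) and 165 times in replicate 2 (98.2 to 278). A read of the 5′ arm is placed only by bases beyond the shared run. After the arm the next base is C in Mir196a-1 and A in Mir196a-2. Whether those bases in the reads came from the locus was not tested, so the ratio describes assigned reads. Mir196a-1 lies in the same cluster and on the same strand as Mir10a, which was 495 times higher in replicate 1 and 494 times higher in replicate 2.

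Mir615, whose hairpin is known in mammals from the intron of Hoxc5, had 260 CPM in replicate 1 against 212 CPM in replicate 2. Its mean was 236 CPM ± 33.5 (SD, n = 2), at rank 135, with replicate 1 the higher. Mir196a-2, its partner in Hoxc, was 3.78 times higher in replicate 1 (3.48 to 4.10) and 4.93 times higher in replicate 2 (4.46 to 5.44). The order Mir10b, Mir196b, Mir10a, Mir196a-2, Mir615 and Mir196a-1 held in both libraries, and no 2 neighbours in it had overlapping ranges. The closest neighbours were Mir196b and Mir10a, at 2.06 times in replicate 1 and 1.71 times in replicate 2.

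**Figure D2:**
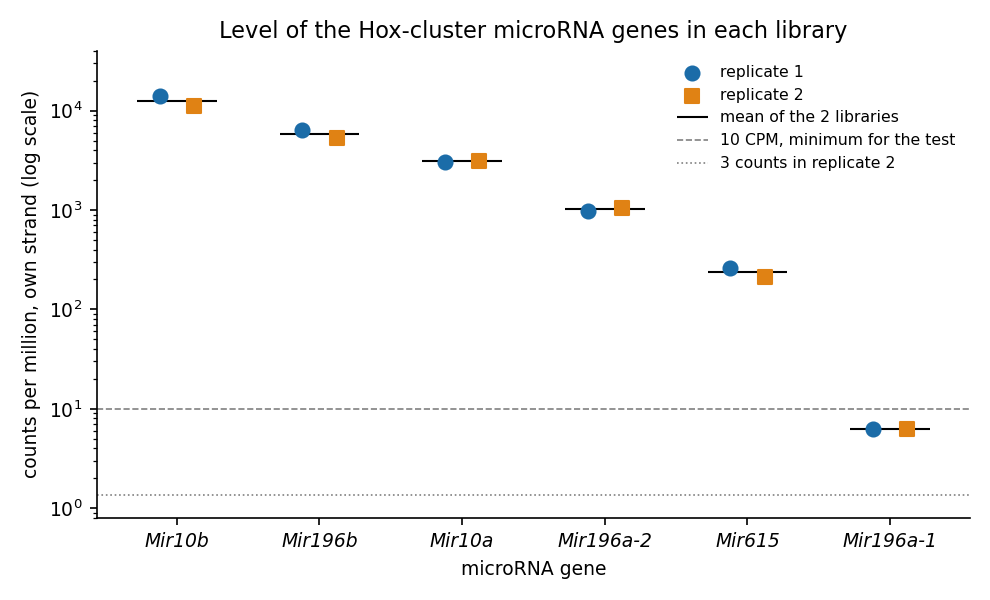
CPM on a gene's own strand (log axis) for each member, with a circle for replicate 1, a square for replicate 2 and a line for their mean. The 5 upper members are above the dashed line at 10 CPM in both libraries, Mir196a-1 is below it at 6.20 and 6.33, and the dotted line is the level of 3 counts in replicate 2 (1.36 CPM).

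Among all microRNA genes, each of the 5 upper members stood in a dense part of the order. Mir10b lay between Mir22 (12977 CPM ± 980), a microRNA of striated muscle, and Mir431 (12545 CPM ± 1119). Mir196b lay between Mir744 (6605 CPM ± 930) and Mir100 (5798 CPM ± 367). Mir10a lay between Mir483 (3248 CPM ± 297) and Mir149 (3070 CPM ± 131). Mir196a-2 lay between Mir145a (1015 CPM ± 4.69) and Mir15a (1001 CPM ± 139), and Mir615 between Mir1a-2 (246 CPM ± 68.2) and Mir107 (232 CPM ± 44.7). Mir1a-1 and Mir1a-2 encode the same mature microRNA, so the count of Mir1a-2 leaves out reads that match both loci. The place of Mir615 beside Mir1a-2 thus does not compare the mature microRNAs. In all 10 cases the ranges over the libraries overlapped and the order was not the same in both libraries, so the ranks are approximate. From replicate 1 to replicate 2 the rank went from 19 to 23 for Mir10b and from 29 to 32 for Mir196b. It went from 44 to 42 for Mir10a, from 75 to 72 for Mir196a-2 and from 130 to 138 for Mir615.

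**Figure D3:**
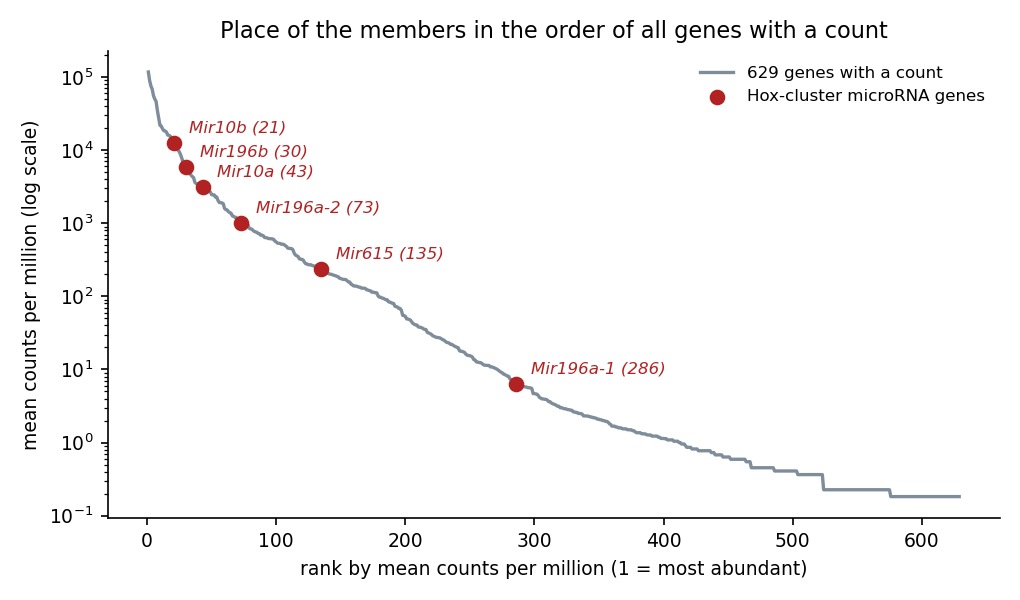
Mean CPM (log axis) of the 629 genes with a count, in order of abundance, with the members marked and their ranks in brackets. Mir10b, Mir196b, Mir10a and Mir196a-2 are among the upper 73 ranks, Mir615 is at 135 and Mir196a-1 at 286.

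The genes whose levels over the 2 libraries were most like those of a member were found by the distance between log2 CPM values. For Mir10b they were Mir431 (0.123) and Mir22 (0.163), and for Mir196b Mir100 (0.0787) and Mir191 (0.279). Those of Mir10a were Mir149 (0.0445) and Mirlet7e (0.0611), and those of Mir196a-2 were Mir320 (0.0402) and Mir145a (0.0596). Mir615 was nearest to Mir18 (0.202) and Mir128-2 (0.257). With 2 libraries of 1 group this measure says only that the counted levels were alike. By its name, Mir128-2 is a locus of the same kind as Mir1a-2, so its count has the same limit.

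The libraries were compared gene by gene with a two-sided exact binomial test on library sizes scaled by TMM (trimmed mean of M-values), over the 258 genes at 10 CPM or more in both, with Benjamini-Hochberg adjustment. The test compares the 2 libraries, not conditions, with counting error as its only error. Log2 ratios are replicate 2 over replicate 1 on log2(CPM + 1), with the CPM of this comparison taken over TMM sizes. The CPM levels printed elsewhere are over total counts, so their ratios differ slightly from the log2 ratios. For Mir10a the sign differs too, since its log2 ratio was 0.029 with total counts. Of the 5 members tested, 3 were lower in replicate 2 and 0 higher. Of all genes tested, 50.8% were called, 31.8% as lower and 19% as higher, so calls were common. The median log2 ratio was −0.29 over the 5 members and −0.04 over the 258 genes.

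Mir10b was at a log2 ratio of −0.40 (adjusted p = 2.54e-258, exact binomial test). Mir196b was at −0.29 (adjusted p = 9.71e-62, exact binomial test) and Mir615 at −0.34 (adjusted p = 0.000236, exact binomial test). Mir10a, at −0.02 (adjusted p = 0.570), and Mir196a-2, at 0.05 (adjusted p = 0.357), did not pass the exact binomial test. The called members were thus the abundant gene of each family and Mir615. Calls were more common among highly counted genes, since the test has counting error only. Of the 75 tested genes whose mean was 1000 CPM or above, 82.7% were called, 37 as lower and 25 as higher. Mir10b, Mir196b, Mir10a and Mir196a-2 have such means, and of them only Mir10b and Mir196b were called. The number of calls therefore does not set these members apart from genes of like level. None of the 5 members tested reached a difference of 2-fold, which 1.16% of all genes tested passed. The 5th percentile of the log2 ratio over all genes was −0.44, and no member was below it. With the spread between libraries taken over all genes (a common biological coefficient of variation of 12.8%), edgeR's exact test called 0 members and 1.16% of the 258 genes. At an unadjusted p under 0.05 it had 0 members and 5.81% of the genes. The differences of Mir10b, Mir196b and Mir615 were therefore larger than counting error, and they did not pass a test whose spread was estimated from these same 2 libraries. With sizes from total counts, all genes split into 67 higher and 66 lower, against 49 and 82 with TMM. The 3 members remained lower, and Mir196a-2 was called higher at 0.09 (adjusted p = 0.0447, exact binomial test).

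**Figure D4:**
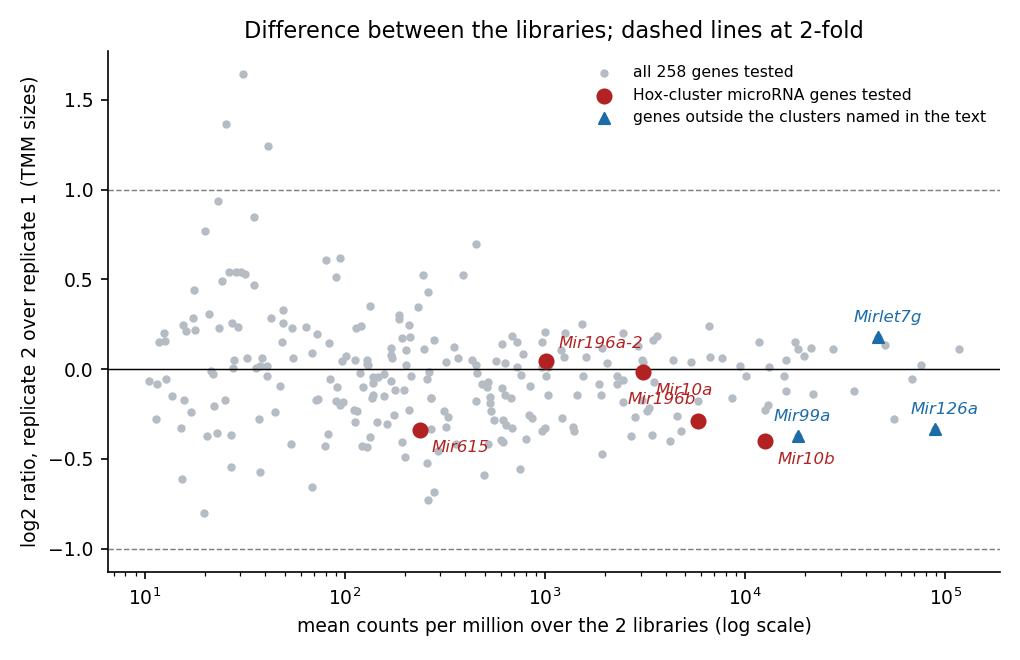
Log2 ratio of replicate 2 over replicate 1 (TMM sizes) against mean CPM (log axis) for the 258 genes tested, with the 5 members tested in red and Mir99a, Mir126a and Mirlet7g as blue triangles. Mir10b, Mir196b and Mir615 lie between −0.40 and −0.29, inside the 2-fold lines and within the cloud of all genes, and Mir10a and Mir196a-2 lie near 0.

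Markers of the tissue and of other cells were read beside these values, with levels over total counts and log2 ratios over TMM sizes. Genes whose names differ only by a final number, such as Mir1a-1 and Mir1a-2, encode the same mature microRNA at separate loci, so the limit given for miR-196a holds for them too: their counts leave out reads that match several loci. The skeletal muscle list, 9 of 9 genes with reads, held 69535 CPM in replicate 1 against 69214 CPM in replicate 2, and nearly all of the reads counted there were of Mir206, known from skeletal muscle. Of the 7 genes tested in that list 2 were higher and 2 lower in replicate 2, among them Mir1a-2 at 0.52 and Mir499 at −0.69. The pairs Mir1a-1 and Mir1a-2, and Mir133a-1 and Mir133a-2, are such loci, so the share of Mir206 among muscle microRNAs is not given by these counts. Mir126a, known from endothelium, was lower in replicate 2 like Mir10b, with 98087 CPM in replicate 1, 80432 CPM in replicate 2 and a log2 ratio over TMM sizes of −0.33. The connective tissue list (4 of 4 genes with reads) had 4825 CPM and 3781 CPM, of which Mir214 gave 4738 and 3708 CPM. Mir214 (−0.40) and Mir199b (−0.57) were lower, Mir199a-2 was at 0.02 with no call, and Mir199a-1 was not tested. The smooth muscle list (2 of 2) had 36704 CPM and 34921 CPM, and the leukocyte list (4 of 4) 977 CPM and 1048 CPM. The red blood cell list (2 of 2) was higher in replicate 2, with 384 CPM and 571 CPM. Of the 7 neuron genes, 5 were listed at 0 in both libraries, and these are Mir9 and Mir124a loci of the same kind, so a 0 there does not show absence. The list had 14.2 CPM and 48.4 CPM, nearly all from Mir137. Mir122, the liver marker, had 108 CPM and 132 CPM. Whether the makeup of the samples has a part in the members' values was not tested.

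The 6 genes of the MIR-10 family outside the Hox clusters are relatives in sequence. Mir99a, Mir99b and Mir100 carry the seed ACCCGUA, in capitals below, which differs from that of miR-10, while their bases after the seed are close to it.
mmu-miR-100-5p: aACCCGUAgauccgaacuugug
mmu-miR-99a-5p: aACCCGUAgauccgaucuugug
mmu-miR-99b-5p: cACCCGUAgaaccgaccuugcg
miR-10a and miR-100 share the run guagauccgaa, 11 bases, from base 7 of miR-10a and base 6 of miR-100. Mir99a, at 20519 CPM in replicate 1 against 16379 CPM in replicate 2, was above Mir10b in both libraries: Mir10b was 0.687 and 0.673 times Mir99a. Mir10b was above Mir100, 2.33 and 1.99 times. Mir99b had 1377 CPM ± 185, Mir125a 2278 CPM ± 40.0, Mir125b-1 256 CPM ± 1.02 and Mir125b-2 163 CPM ± 20.9. The 6 relatives together held 28322 CPM ± 3542 against 22738 CPM ± 2809 for the Hox-cluster genes, and Mir125b-1 and Mir125b-2 share a mature sequence as the Mir196a loci do. Of the 6 relatives, 5 were lower in replicate 2 and 0 higher by the exact binomial test, with a median log2 ratio of −0.24. Of all genes tested, 31.8% were called lower and 19% higher, and 82.7% of those with a mean of 1000 CPM or above were called. By edgeR's exact test no relative had an unadjusted p under 0.05, the smallest being 0.158 for Mir99a. Mir99a was at −0.37, Mir99b at −0.32, Mir125b-2 at −0.31, Mir100 at −0.18 and Mir125a at −0.08, while Mir125b-1, at −0.05, was not called.

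The let-7 genes are the sequence neighbours of miR-196, since bases 3 to 9 of let-7 spell the seed of miR-196, as the capitals in this line show.
mmu-let-7i-5p: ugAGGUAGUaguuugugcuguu
The 12 let-7 genes held 142684 CPM ± 12381, against 6846 CPM ± 638 for the miR-196 genes. Both sums leave out reads that match several loci, of miR-196a and of let-7a, let-7c and let-7f, by an amount that the tables do not give. Mirlet7i had 50055 CPM ± 4426 and Mirlet7g 46287 CPM ± 5137. By the exact binomial test, 8 of the 12 were higher in replicate 2 and 1 lower, with a median log2 ratio of 0.13. The shares over all genes tested were 19% higher and 31.8% lower, and 82.7% of those with a mean of 1000 CPM or above were called. By edgeR's exact test no let-7 gene had an unadjusted p under 0.05, the smallest being 0.223 for Mirlet7a-2. Mirlet7i was at 0.13 and Mirlet7g at 0.18, where Mir196b was at −0.29.

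**Figure D5:**
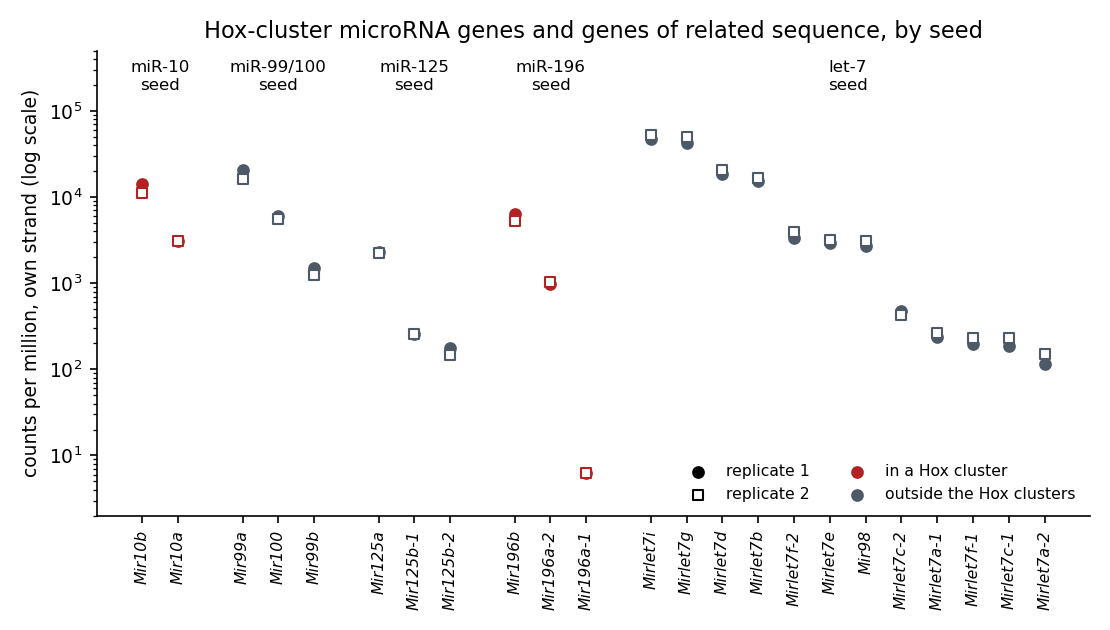
CPM (log axis) in replicate 1 (filled circles) and replicate 2 (open squares) of the Hox-cluster genes of the miR-10 and miR-196 seeds (red) and of the related miR-99/100, miR-125 and let-7 genes (grey). Mir10b lies between Mir99a and Mir100 in both libraries, and the Mir196 genes lie below the upper let-7 genes.

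Because targets of these microRNAs include Hox genes, the seed matches in Hox 3′ UTRs of the annotation were counted, without any expression value. The longest spliced 3′ UTR of each gene was searched on its sense strand for the 7-letter complement of the seed. The match to miR-196, ACTACCT, was in 8 of 38 Hox genes (21.1%) and in 6.09% of 21021 genes. In UTRs of 1000 to 3000 bases it was in 3 of 17 Hox genes and in 7.53% of 7438 genes. Hoxa7 had 4 matches and Hoxc8 had 2, while Hoxa4, Hoxa5, Hoxa9, Hoxb1, Hoxb6 and Hoxb7 had 1 each. The match to miR-10, ACAGGGT, was in 3 Hox genes (7.89%: Hoxa3, Hoxb3 and Hoxd1) against 12.5% of all genes. That to miR-615-3p, GGCTCGG, was in Hoxb4 (2.63%) against 2.30% of all genes. In UTRs of 1000 to 3000 bases the match to miR-10 was in 1 of 17 Hox genes and in 16.3% of 7438 genes. For miR-615-3p these values were 1 of 17 Hox genes and 3.00% of 7438 genes. A match is a description of letters and not a measured site.

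Hoxb8 has no full seed match, and its pairing was the most extended of all genes scanned. At chr11:96284888-96284909 (plus strand, mm10, in the 3′ UTR) 21 of the 22 bases of miR-196a-5p had a Watson-Crick partner, and position 5, within the seed, was a G:U pair. No other gene of 20914 scanned had more than 17 such pairs with miR-196a-5p without a gap. miR-196b-5p had 20 of 22 at the same site. The sites in Hoxb8 and in Hoxa7 (chr6:52215210-52215231, minus strand) are shown with the bases opposite the seed in capitals.
Hoxb8: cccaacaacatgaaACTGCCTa
Hoxa7: actactagccctaaACTACCTa
The Hoxb8 gene is in the same cluster as Mir196a-1, the locus with the fewest counted reads. Nearly all miR-196a reads that could be placed were counted at Mir196a-2 in Hoxc.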

How the data were processed

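Small RNA under 30 nt was sequenced from gastrocnemius in 2 libraries of 1 group. The authors deposited raw counts, whole numbers of reads per microRNA gene, in columns for either strand, the gene's own and the opposite one. Build mm10 and annotation M21 are stated per the labels and in notes beside the tables. The aligner and the counter are not given in the sources used here. Unmapped, multimapping, unannotated and ambiguous reads, in 4 lines that name no gene, stayed out of totals and tests. They held 72.7% (replicate 1) and 73.0% (replicate 2) of all reads.

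CPM was computed from own-strand counts over all 2202 genes. A gene with no count allows up to 3 counts, 1.09 CPM in replicate 1 and 1.36 CPM in replicate 2. Log2 ratios used TMM sizes from edgeR 4.0.16 (R 4.3.3) and a pseudocount of 1 CPM. The two-sided exact binomial test (SciPy 1.17.1) took genes with at least 10 CPM in each library, adjusted by Benjamini-Hochberg at 0.05. It was tested on simulated counts that held counting error only. That does not show how it behaves with the further spread between these libraries. Alternatives were DESeq2 1.42.0 size factors, total counts, other filters, folds and pseudocounts, either-strand counts, edgeR's exact test and each library alone. Symbols and transcripts came from GENCODE vM21, and all 2202 identifiers matched. Genes were named by rule: all members, their neighbours in level and their nearest genes, the MIR-10 relatives and up to 3 of each other list. Members and lists were chosen with earlier results of these data known. A Hox gene is not reported here and is in no count.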

Additional observations from a re-analysis of the deposited data

How the results depend on the processing

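The order of the members and the ratios between them did not depend on the denominator, since all were taken within a library. The share of reads held by the 6 genes, 2.27%, was 2.97% with either strand counted, where the members' own counts were the same and the total smaller. It was 0.617% of all reads of the library, 2.57% without the most abundant gene in the total and 1.02% without Mir10b. With 1 library left out it ranged from 2.08% to 2.47%, the ratio of Mir10b to Mir10a from 3.52 to 4.60, that of Mir196b to Mir196a-2 from 5.11 to 6.44 and that of Mir196a-2 to Mir196a-1 from 158 to 165. No comparison between libraries is possible with 1 left out. No paired analysis was possible because there is 1 group. Of the 5 members tested, 3 were called, and 0 were called at 2-fold or by edgeR's exact test (adjusted p = 0.950 for Mir10b, 0.995 for Mir196b and 0.984 for Mir615). Of all genes, 131 were called, 69 at 1.2-fold, 3 at 2-fold and 3 by edgeR's exact test, which had 15 at an unadjusted p under 0.05. The log2 ratio of Mir10a changed sign, to 0.020 with DESeq2 size factors, 0.029 with total counts and 0.012 with TMM over the tested genes, an alternative chosen after seeing the data. It was not called under any of them. The ratio of Mir10b ranged from −0.41 to −0.36, that of Mir196b from −0.29 to −0.24 and that of Mir615 from −0.34 to −0.29. Mir196a-1, at 17 and 14 reads, is the member with the fewest counts. Reads that match both Mir196a loci are left out of its count at any depth.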
